A study of Mus musculus with 8 samples.

Results

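Of the 24078 entries in a table of hippocampal RNA counts, 10 are examined here because their gene symbols match, exactly, genes that mark the 2 cell layers of small brain vessels. Claudin 5 (Cldn5), Flt1, Kdr, Pecam1, Slco1c1 and Slco1a4 mark endothelial cells, and Pdgfrb, Rgs5, Abcc9 and Kcnj8 mark mural cells, that is pericytes and smooth muscle. The hippocampi came from 4 mice homozygous for the targeted Wfs1 allele Wfs1tm1Koks and from 4 wild-type mice of the same strain label, 1 library per animal. Wfs1 encodes wolframin, a glycoprotein of the endoplasmic reticulum membrane whose loss causes Wolfram syndrome in humans. The labels name no treatment, and no age, sex, litter or background strain. Whole hippocampus was used, so fewer vessel cells and less RNA per vessel cell cannot be told apart in any value below.

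Brain capillaries are lined by endothelial cells sealed with tight junctions, which together with selective transporters form the blood-brain barrier. Pericytes lie on the outside of these capillaries, and are drawn there and kept there by platelet-derived growth factor B that the endothelium secretes and their receptor PDGFRβ detects. Vascular endothelial growth factor A acts on the endothelium through the receptors VEGFR1 (Flt1) and VEGFR2 (Kdr). Pericytes and vascular smooth muscle carry an ATP-sensitive potassium channel, built from the pore Kir6.1 (Kcnj8) and the sulfonylurea receptor SUR2 (Abcc9), which couples cell metabolism to vessel tone.

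Vessel genes moved in both directions in the homozygous hippocampus. Pdgfrb was at 0.503 times its wild-type level, Rgs5 at 0.731 times and Flt1 at 0.754 times, while Kdr was at 1.52 times and Abcc9 at 1.43 times. Cldn5, Pecam1, Slco1c1, Slco1a4 and Kcnj8 passed in neither direction. Thus 2 of the 10 genes rose, 3 fell and 5 did neither at an adjusted p under 0.05 in edgeR's quasi-likelihood test, adjusted over 20478 genes. Of all those genes 41.1% were called, 20.7% as higher and 20.4% as lower, so a share of 5 in 10 lies near the background. All homozygous values lay below all wild-type values for 4 of the 10 genes and above them for 1, beside 18.8% of all genes in either case. The median log2 fold change of the 10 genes was -0.22, beside 0.05 for all genes tested. Pdgfrb and Abcc9 were called when any 1 of the 8 libraries was left out. Without wild-type replicate 9 they were the only members called, and Kdr also lost its call without homozygous replicate 15 (adjusted p 0.0716) or 16 (adjusted p 0.0558).

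**Figure D1:**
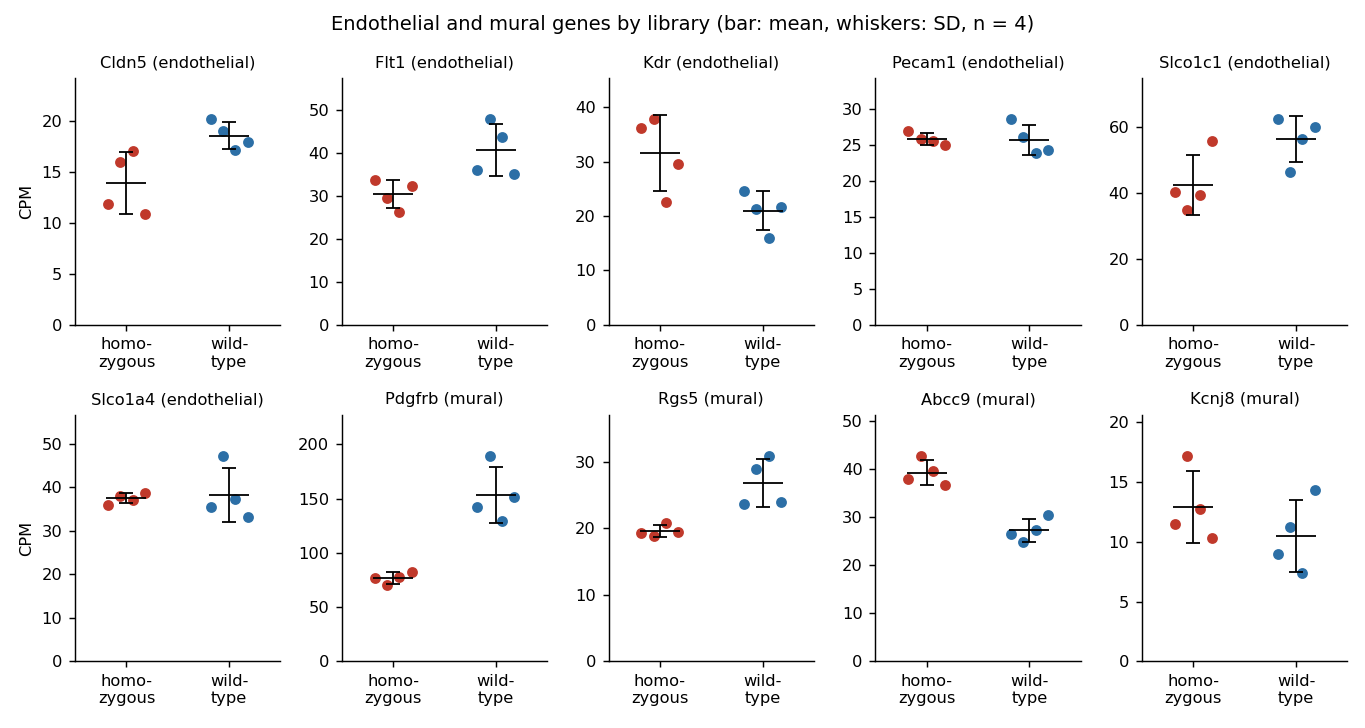
Counts per 1000000 (CPM, axis from 0) of the 10 genes in each library, homozygous in red on the left and wild-type in blue on the right of each panel, with the mean as a bar and the SD as whiskers (n = 4). The homozygous points of Cldn5, Flt1, Pdgfrb and Rgs5 all lie below the wild-type points, those of Abcc9 all lie above, and the other 5 genes overlap.

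The libraries held 3250949 to 5077114 counts in homozygous and 3296309 to 6747411 counts in wild-type animals, and a vessel gene had between 33 and 807 counts in a library. The lowest, 33 counts of Kcnj8 in wild-type replicate 8, has an exact Poisson 95% interval of 22.7 to 46.3, which covers counting error only. The targeted gene matched the labels: Wfs1 averaged 14.8 ± 2.61 CPM in homozygous and 52.0 ± 7.49 CPM in wild-type libraries (SD, n = 4 each), with no overlap. CPM here use library totals scaled by trimmed means (TMM). Scaled by library totals alone, all genes had a median log2 fold change of 0.25 in place of 0.05, with 32.4% called higher and 11.8% lower. Fold changes were also computed after removal of a smooth trend on abundance (18.1% of genes higher, 16.3% lower) or on counts per kilobase, termed the density trend (17.1% higher, 15.2% lower), and are given where they alter the call of one of the 10 genes or of a related gene described further on.

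Set against length, most of these genes were at low levels. As a yardstick served 147 genes of the keratin, taste receptor, Cyp2 and Mrgpr families, which have little known role in hippocampus. Their 10th to 90th percentiles spanned 2.22 to 8.47 CPM per kilobase of exon in homozygous and 1.72 to 7.61 in wild-type libraries. Family genes with too few counts to be tested were left out, so this range is that of detected genes. Among the vessel genes 2 lay above that range in homozygous libraries, Pdgfrb (14.04 CPM per kilobase; a gene of chromosome 18, plus strand) and Cldn5 (9.84). In wild-type libraries 3 lay above it, Pdgfrb (27.9 CPM per kilobase), Cldn5 (13.1) and Slco1c1 (10.9). The others lay within it in both genotypes, in the order Slco1a4, Rgs5, Pecam1, Kcnj8, Abcc9, Flt1 and Kdr in wild-type libraries, where neighbours such as Pecam1 (4.12) and Kcnj8 (4.11) did not differ beyond their spread. Lengths are the union of all annotated exons, which is long for Flt1 (13504 bp), so its density is a low estimate where short isoforms prevail. What part of the counts within the range comes from vessel cells was not tested. The yardstick genes themselves had a median log2 fold change of 0.34, with 33 called higher and 7 lower. A gene could enter the yardstick through its counts in either genotype alone, so this median is a description and no neutral baseline.

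**Figure D2:**
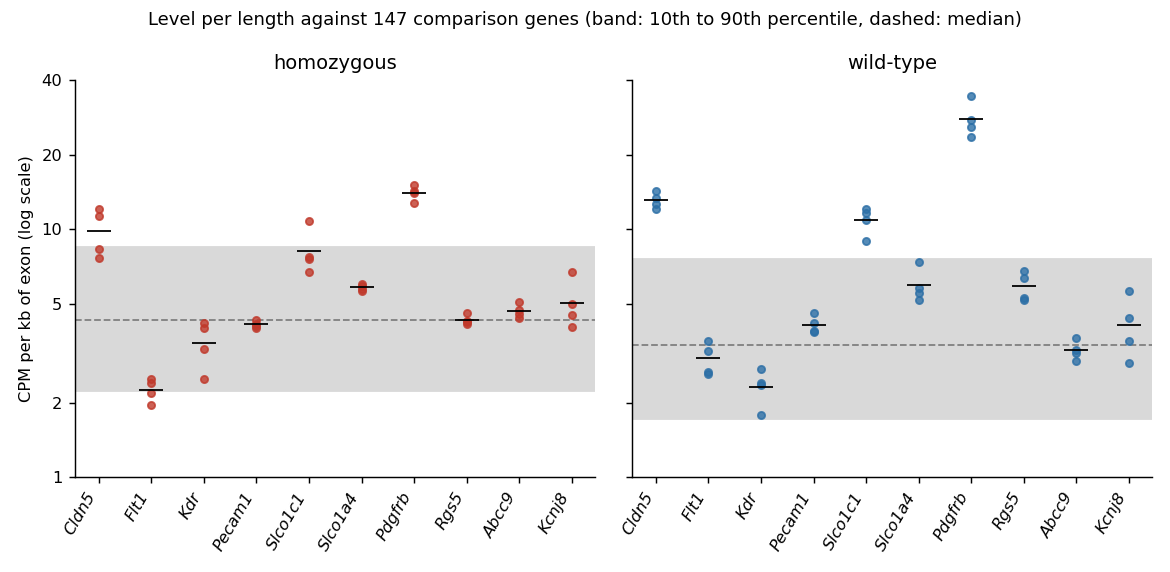
CPM per kilobase of exon on a log axis for each gene, homozygous libraries in the left panel and wild-type libraries in the right. Points are libraries, black bars are means, and a grey band runs from the 10th to the 90th percentile of 147 comparison genes with enough counts to be tested. In homozygous libraries the means of Pdgfrb (14.04) and Cldn5 (9.84) stand above the band, and in wild-type libraries those of Pdgfrb (27.9), Cldn5 (13.1) and Slco1c1 (10.9) do.

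The VEGF receptors moved apart. Flt1, a high-affinity receptor that also exists as a soluble trap for VEGF, had 33.7, 29.6, 26.3 and 32.3 CPM in homozygous replicates 15, 16, 17 and 18, against 36.0, 47.8, 43.8 and 35.1 CPM in wild-type replicates 7, 8, 9 and 10. Every homozygous library was below every wild-type library, although homozygous replicate 15 and wild-type replicate 10 were close. Flt1 fell by 0.41 on the log2 scale (SE 0.14, adjusted p 0.0374). Flt1 was no longer called with the abundance trend removed (-0.37, adjusted p 0.0646) or with library totals as the scaling (-0.20, adjusted p 0.251), nor without homozygous replicates 16 or 17 or wild-type replicates 8 or 9, where adjusted p ran from 0.0615 to 0.0995.

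Kdr, the receptor that carries most VEGF signalling in endothelium, had 36.2, 37.8, 22.6 and 29.6 CPM in homozygous replicates 15 to 18, against 24.6, 21.4, 16.04 and 21.7 CPM in wild-type replicates 7 to 10. The ranges overlapped, since homozygous replicate 17 lay below wild-type replicate 7. Kdr rose by 0.60 on the log2 scale (SE 0.19, adjusted p 0.0245), a value of 0.43 (adjusted p 0.0891) with the density trend removed. Flt1 over Kdr, a quotient within each library that no scaling of libraries alters, was 0.932, 0.785, 1.17 and 1.09 in homozygous replicates 15 to 18 and 1.46, 2.24, 2.73 and 1.62 in wild-type replicates 7 to 10. The quotient was thus lower in each homozygous library than in any wild-type library. No test is given for it, since the pair was set side by side after the values were seen. Their shared ligand gene Vegfa, also looked up afterwards, had 50.5 ± 2.45 CPM in homozygous and 49.1 ± 4.25 CPM in wild-type libraries (log2 fold change 0.04, 95% interval -0.21 to 0.28).

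Both receptor genes lie on the minus strand of chromosome 5, Kdr at 75932827 to 75978458 and Flt1 at 147561604 to 147726011 of mm10. Wfs1 is on the same chromosome, 38.9 Mb from Kdr and 110.6 Mb from Flt1. Their promoters are shown because the paired receptors differ in direction: 300 bases from RefSeq on GRCm38.p6, read 5′ to 3′ on the minus strand, of which 250 precede the transcription start and 50 follow it. Bases are counted from the 5′ end of each window. The Flt1 window is chr5:147725962-147726261 and the Kdr window chr5:75978406-75978705. Capitals mark the ETS core GGAAGT (or ACTTCC), the GC box GGGCGG (or CCGCCC) and the TATA box TATAAA (or TTTATA), searched on both strands, with no overlap between matches.
Flt1: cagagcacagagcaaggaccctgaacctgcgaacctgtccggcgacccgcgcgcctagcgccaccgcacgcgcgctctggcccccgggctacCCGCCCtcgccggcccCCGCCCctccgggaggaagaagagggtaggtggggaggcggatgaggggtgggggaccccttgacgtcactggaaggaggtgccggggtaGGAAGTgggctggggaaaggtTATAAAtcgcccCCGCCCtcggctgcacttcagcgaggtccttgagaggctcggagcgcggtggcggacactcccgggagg
Kdr: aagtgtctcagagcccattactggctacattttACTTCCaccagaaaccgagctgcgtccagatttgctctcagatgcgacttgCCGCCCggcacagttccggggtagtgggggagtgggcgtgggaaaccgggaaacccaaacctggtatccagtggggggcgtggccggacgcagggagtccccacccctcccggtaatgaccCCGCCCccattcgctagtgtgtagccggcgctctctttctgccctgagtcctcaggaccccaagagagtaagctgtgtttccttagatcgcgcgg
The Flt1 window held 1 ETS core, 3 GC boxes and 1 TATA box, the last at bases 220 to 225. The Kdr window held 1 ETS core, at bases 34 to 39, and 2 GC boxes, with no match to the TATA letters. Of 32851 mouse promoter windows of this length, 23.8% hold the ETS core, 35.7% the GC box and 13.6% the TATA box. These matches describe the letters and say nothing of binding.

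Of the endothelial junction genes, Pecam1 had close means in both genotypes and Cldn5 sat at the edge of the threshold. Pecam1, the adhesion molecule CD31 of endothelial junctions, had 26.8, 25.8, 25.4 and 24.9 CPM in homozygous replicates 15 to 18, against 28.5, 26.1, 23.9 and 24.2 CPM in wild-type replicates 7 to 10. All homozygous values lay inside the wild-type range. Its log2 fold change was 0.01 with a 95% interval of -0.25 to 0.27, that is 0.838 to 1.21 times wild-type, so larger changes lie outside the interval, and its sign turned with the trends removed (-0.03 and -0.15, neither called). Pecam1 spans 106654217 to 106750628 of chromosome 11, on the minus strand.

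Cldn5, the claudin that seals brain endothelial junctions, had 11.8, 15.97, 17.1 and 10.9 CPM in homozygous replicates 15 to 18, against 20.1, 19.0, 17.2 and 17.9 CPM in wild-type replicates 7 to 10. The homozygous values were all below the wild-type ones, with homozygous replicate 17 almost touching wild-type replicate 9. Groups that do not overlap were found for 37.6% of all genes tested. The log2 fold change of -0.42 (SE 0.17, 95% interval -0.80 to -0.04) missed the threshold at an adjusted p of 0.0718, and passed it with the abundance trend removed (-0.53, adjusted p 0.0341) but not with the density trend removed (-0.27, adjusted p 0.251). Cldn5 is a gene of 1 exon on the plus strand of chromosome 16, 18776847 to 18778262. At 1416 bp it is the shortest of the 10 genes.

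The organic anion transporters of the barrier differed in their values but not in their calls. Slco1c1 encodes OATP1C1, which carries thyroxine into the brain and is also made by astrocytes and the choroid plexus. It had 40.3, 34.8, 39.3 and 55.8 CPM in homozygous replicates 15 to 18, against 62.4, 46.5, 56.5 and 60.2 CPM in wild-type replicates 7 to 10. Homozygous replicate 18 stood among the wild-type values and the other 3 homozygous libraries below them. Its log2 fold change of -0.41 (SE 0.16) missed the threshold (adjusted p 0.0574). Without homozygous replicate 18 it was -0.57 and called (adjusted p 0.00973), and without wild-type replicate 8 it was -0.51 and called (adjusted p 0.0303). A list of 10 astrocyte markers, whose part in this value was not tested, summed to 2188 to 2378 CPM in homozygous and 3151 to 3883 CPM in wild-type libraries.

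Slco1a4 encodes OATP1A4, an exchanger of steroid conjugates, bile acids and drugs at the capillary wall. It had 36.0, 38.0, 37.0 and 38.7 CPM in homozygous replicates 15 to 18, against 35.4, 47.1, 37.2 and 33.2 CPM in wild-type replicates 7 to 10. The 4 homozygous libraries lay within a narrow band inside the wild-type range. On the log2 scale the difference was -0.02, with a 95% interval of -0.31 to 0.26. It was 0.18 with library totals and 0.03 with the abundance trend removed, called in neither. Both genes are on chromosome 6, Slco1c1 on the plus strand at 141524368 to 141570177 and Slco1a4 on the minus strand at 141805440 to 141856199, 235.3 kb apart. Of the 35-base words in annotated Slco1a4 transcripts, 3.82% also stand in other genes, most of them in its relative Slco1a5, and the treatment of such reads was not given in the sources used here.

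**Figure D3:**
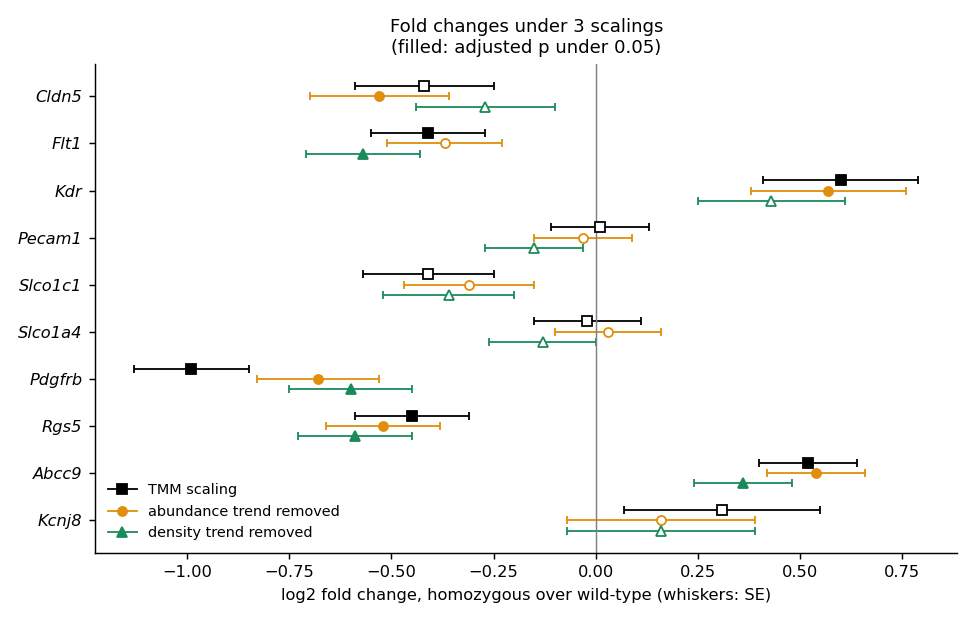
Log2 fold changes, homozygous over wild-type, with SE for the 10 genes under TMM scaling (black squares), with the abundance trend removed (orange circles) and with the density trend removed (green triangles), filled where adjusted p is under 0.05. Pdgfrb, Rgs5 and Abcc9 are filled under all 3, and the sign turns for Pecam1 and Slco1a4, neither of them called.

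Among mural genes Pdgfrb showed the largest difference of the 10. This receptor, needed for pericyte recruitment, had 76.8, 70.0, 78.1 and 82.8 CPM in homozygous replicates 15 to 18, against 142.1, 189.2, 129.5 and 151.5 CPM in wild-type replicates 7 to 10. Each homozygous library was far below each wild-type library. The means were 76.9 ± 5.28 CPM in homozygous and 153 ± 25.7 CPM in wild-type libraries (SD, n = 4 each), which put Pdgfrb at -0.99 on the log2 scale (SE 0.14, adjusted p 0.000437). The size of that change exceeded those of 87.8% of all genes tested. With the abundance and density trends removed it was smaller but called (-0.68, adjusted p 0.00655, and -0.60, adjusted p 0.0132).

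In level Pdgfrb stood apart from its fellow mural genes. Per kilobase it ranked above 85.6% of 18380 protein-coding genes in homozygous and above 93.7% in wild-type libraries, whereas Rgs5 ranked above 33.1% in homozygous and 53.7% in wild-type libraries. Its downstream neighbour Csf1r, a microglial receptor gene 15.5 kb away, had 103.2 ± 43.2 CPM in homozygous and 76.4 ± 12.7 CPM in wild-type libraries and passed in neither direction (log2 fold change 0.44, adjusted p 0.188), although it was called higher without homozygous replicate 18 (0.61, adjusted p 0.0438). Of the 35-base words of Pdgfrb transcripts 0% occur in another annotated gene. Pdgfb, the ligand gene, looked up after its values were seen, was at 38.1 ± 2.81 CPM in homozygous and 46.9 ± 1.90 CPM in wild-type libraries (log2 fold change -0.30, adjusted p 0.0449). That call ended when any 1 library other than homozygous replicate 18 was left out (adjusted p up to 0.112).

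Rgs5, a pericyte regulator that shortens G-protein signals of vasoactive receptors, had 19.3, 18.9, 20.8 and 19.4 CPM in homozygous replicates 15 to 18, against 23.6, 28.8, 30.8 and 24.0 CPM in wild-type replicates 7 to 10. All homozygous values lay below all wild-type values and close to each other. Rgs5 fell by 0.45 on the log2 scale (SE 0.14, adjusted p 0.0215), and it lost its call with library totals (-0.25, adjusted p 0.153) and without homozygous replicate 15 (adjusted p 0.0537) or wild-type replicate 9 (adjusted p 0.073). Pdgfrb over Rgs5 was 3.71 to 4.27 in homozygous and 4.20 to 6.56 in wild-type libraries, ranges that overlap. Rgs5 lies on the plus strand of chromosome 1, 169655501 to 169695813. Its promoter window, chr1:169655251-169655550, is printed beside those of the VEGF receptors, as it holds no exact match to the letters of the 3 motifs. Variant letters, such as tatatat in this window, were not searched for.
Rgs5: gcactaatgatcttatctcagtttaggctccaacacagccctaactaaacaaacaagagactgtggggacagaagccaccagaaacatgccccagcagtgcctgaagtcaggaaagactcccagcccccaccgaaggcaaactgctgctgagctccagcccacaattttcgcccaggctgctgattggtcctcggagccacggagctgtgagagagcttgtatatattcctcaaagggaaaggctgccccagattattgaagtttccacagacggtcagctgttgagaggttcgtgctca

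The channel pair Abcc9 and Kcnj8 was not lower. Abcc9, the SUR2 subunit, had 38.0, 42.7, 39.6 and 36.7 CPM in homozygous replicates 15 to 18, against 26.6, 24.8, 27.3 and 30.5 CPM in wild-type replicates 7 to 10. Every homozygous library lay above every wild-type library. Abcc9 rose by 0.52 on the log2 scale (SE 0.12, adjusted p 0.0055), also after removal of the abundance trend (0.54, adjusted p 0.00516) or the density trend (0.36, adjusted p 0.0378). Kcnj8, the Kir6.1 pore subunit, had 11.5, 17.1, 12.7 and 10.3 CPM in homozygous replicates 15 to 18, against 8.999, 11.2, 7.38 and 14.3 CPM in wild-type replicates 7 to 10. The groups overlapped widely, and the log2 fold change of 0.31 (SE 0.24, adjusted p 0.314) had a 95% interval of -0.21 to 0.83. Abcc9 over Kcnj8 was 2.49 to 3.57 in homozygous and 2.13 to 3.70 in wild-type libraries, ranges that overlap. A shift in this quotient of RNA counts was not tested.

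Kcnj8 and Abcc9 are neighbours on the minus strand of chromosome 6, Kcnj8 at 142564837 to 142571614 and Abcc9 at 142587862 to 142702315, with 16.2 kb between them. Abcc9 overlaps the antisense gene 5330439B14Rik, with which it shares 158 bp of exon. That gene was called higher too (14.8 ± 7.68 CPM in homozygous and 6.03 ± 0.77 CPM in wild-type libraries), and because the strand setting of the counting is not given, reads from the shared stretch cannot be told apart. The Abcc9 promoter is shown as that of the member called higher in every comparison run. Its window is chr6:142702225-142702524, minus strand, with 1 GC box in capitals and 65.7% G and C.
Abcc9: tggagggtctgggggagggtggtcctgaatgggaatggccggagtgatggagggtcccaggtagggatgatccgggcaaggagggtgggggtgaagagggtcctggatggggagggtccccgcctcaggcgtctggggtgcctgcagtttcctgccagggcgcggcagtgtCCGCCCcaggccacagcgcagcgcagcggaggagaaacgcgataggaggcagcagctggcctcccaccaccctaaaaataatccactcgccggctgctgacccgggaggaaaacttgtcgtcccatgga
The other ATP-sensitive potassium channel genes of neurons and beta cells gave a different picture: Kcnj11, the Kir6.2 pore, had 20.5 ± 2.79 CPM in homozygous and 42.4 ± 12.2 CPM in wild-type libraries (log2 fold change -1.06, SE 0.20, adjusted p 0.0023). Its partner Abcc8 passed in neither direction (0.17, SE 0.17).

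Summed over the 6 endothelial genes, CPM were 167.7 to 192.3 in homozygous and 192.3 to 207.8 in wild-type libraries. The 4 mural genes summed to 145.5 to 151.2 CPM in homozygous and 194.9 to 254.0 CPM in wild-type libraries. That gap came from Pdgfrb, since the mural sum without it was 66.3 to 78.7 CPM in homozygous and 59.1 to 68.8 CPM in wild-type libraries. The sums are descriptions, weighted by the more abundant genes, and carry no test.

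Other endothelial genes also went both ways. Of 24 identity genes 7 rose, 4 fell and 13 passed in neither direction, their median log2 fold change being 0.06, and 8 lay above the yardstick range per kilobase in homozygous and 4 in wild-type libraries. Podxl, a sialomucin of the luminal surface, rose (79.6 ± 9.86 CPM in homozygous, 47.1 ± 3.12 CPM in wild-type; log2 fold change 0.75, SE 0.12, adjusted p 0.00101). Cdh5, the VE-cadherin of adherens junctions (0.79, SE 0.22), Esam, a junctional adhesion molecule (0.80, SE 0.21), and Erg, an ETS transcription factor of endothelium (0.71, SE 0.17), rose too. The genes of highest CPM averaged over all 8 libraries, Ptprb (124.6 CPM in homozygous, 130.1 CPM in wild-type) and Vwf (58.9 CPM in homozygous, 73.8 CPM in wild-type, with 136.3 CPM in replicate 8), passed in neither direction. The 4 called lower were Cd34, Ly6c1, Ly6a and Itm2a, named after their values were seen. With library totals as the scaling 7 of the 24 were called higher and 0 lower, with DESeq2 6 and 4, and at an unadjusted p under 0.05 in edgeR 7 and 5.

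Barrier junction genes outside the 10 were split as well: of 12, 2 rose, 4 fell and 6 did neither. Cgnl1, the junction adaptor paracingulin, had 128.6 ± 40.2 CPM in homozygous and 39.5 ± 3.93 CPM in wild-type libraries (log2 fold change 1.70, SE 0.20, adjusted p 0.000136), and Marveld2, tricellulin, rose with 1.08 (SE 0.16). Tjp1, the scaffold ZO-1, fell with -0.68 (SE 0.13), and Cldn3 with -1.79 (SE 0.39). Of 20 transport genes 4 rose and 5 fell, their median being -0.22, and with the abundance trend removed 4 were higher and 3 lower. Slc22a8, the organic anion transporter OAT3 of capillaries and choroid plexus, had 26.9 ± 3.42 CPM in homozygous and 134.8 ± 28.2 CPM in wild-type libraries (log2 fold change -2.32, SE 0.18, adjusted p 9.96e-06). Bsg, basigin, fell with -0.83 (SE 0.17) but was not called with either trend removed (adjusted p 0.0681 and 0.945), Slco2b1 fell with -0.53 (SE 0.12; adjusted p 0.0566 with library totals), and the insulin receptor gene Insr rose with 0.50 (SE 0.12). Lrp1, a clearance receptor, fell with -0.53 and lost its call without wild-type replicates 7 or 8 (adjusted p 0.06 and 0.0524) and with the abundance or density trend removed (adjusted p 0.747 and 0.0667).

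In VEGF, angiopoietin and Notch signalling 6 of 21 genes rose, 1 fell and 14 did neither, with a median of 0.04, and with the density trend removed 2 were higher and 1 lower. Vegfc, a ligand of the third VEGF receptor and of Kdr, had 19.7 ± 6.16 CPM in homozygous and 6.72 ± 1.27 CPM in wild-type libraries (log2 fold change 1.52, SE 0.24, adjusted p 0.000832). Esm1, a secreted proteoglycan of tip cells, had 28.4, 51.4, 91.9 and 189.3 CPM in homozygous replicates 15 to 18, against 17.6, 16.3, 14.9 and 14.7 CPM in wild-type replicates 7 to 10. All homozygous values were higher but differed widely from each other, and the log2 fold change of 2.50 (SE 0.47) was 1.83 without homozygous replicate 18. Notch4 (0.41, SE 0.12) and Figf, which encodes VEGF-D (0.73, SE 0.22), rose but lost their calls without wild-type replicate 9 (adjusted p 0.0546 and 0.0663), Figf also without homozygous replicate 15 or wild-type replicate 7. Aplnr, the apelin receptor, fell (-1.05, SE 0.36), with adjusted p up to 0.0898 when homozygous replicate 15 or wild-type replicates 7, 8 or 10 were left out. With the density trend removed Notch4, Figf and Aplnr were not called (adjusted p 0.117, 0.0592 and 0.628). Removal of the abundance trend also ended the calls of Figf (adjusted p 0.0815) and Aplnr (adjusted p 0.383). Nrp2, a VEGF co-receptor, was at 0.03 (SE 0.12), not called, but at 0.37 and called higher with the abundance trend removed (adjusted p 0.0207).

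Of 15 other pericyte genes 4 rose, 0 fell and 11 did neither, with a median of 0.25. The share called higher lies near the 20.7% of all genes, and the yardstick genes had a median of 0.34. Per kilobase 4 of the 15 lay above the yardstick range in homozygous and 4 in wild-type libraries. Of the 4 mural genes above 1 rose and 2 fell. The counts of the 15 were also 4 higher and 0 lower in DESeq2, in limma-voom, with either trend removed, and at an unadjusted p under 0.05 in edgeR. Notch3, the mural receptor mutated in a human small vessel disease, had 165.9, 201.5, 129.5 and 88.9 CPM in homozygous replicates 15 to 18, against 42.0, 40.7, 42.5 and 37.4 CPM in wild-type replicates 7 to 10. Every homozygous library was higher, and the log2 fold change was 1.85 (SE 0.22, adjusted p 0.00015). Ndufa4l2 (1.15, SE 0.21) and the aminopeptidase gene Anpep (0.91, SE 0.18) rose. Cspg4, the NG2 proteoglycan that oligodendrocyte precursors also carry, had 487.9, 1449.1, 81.0 and 172.6 CPM in homozygous replicates 15 to 18, against 43.7, 87.1, 138.6 and 108.6 CPM in wild-type replicates 7 to 10. Its groups overlapped, and the log2 fold change of 2.53 was 1.38 without homozygous replicate 16.

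Of 14 genes of PDGF signalling and pericyte recruitment 2 rose, 4 fell and 8 did neither, the median being 0.01. With the abundance trend removed 3 were higher and 1 lower. Foxf2, a forkhead factor of brain pericytes, had 27.4 ± 3.06 CPM in homozygous and 64.1 ± 7.91 CPM in wild-type libraries (log2 fold change -1.22, SE 0.13, adjusted p 0.000102), lower in each homozygous library like Pdgfrb. Tgfb1 (1.47, SE 0.23) and its receptor gene Tgfbr2 (0.49, SE 0.13) rose, and the sphingosine phosphate receptor gene S1pr1 fell (-0.54, SE 0.15), the last with no call once either trend was removed (adjusted p 0.208 and 0.834). Cdh2 was at -0.09 (SE 0.12), not called, but at 0.35 with the abundance trend removed and 0.34 with the density trend removed, called higher in both (adjusted p 0.0359 and 0.0365). Of 10 smooth muscle genes 4 rose and 0 fell, the median being 0.39, with the same counts in DESeq2 and at an unadjusted p under 0.05 in edgeR. Of all genes 20.7% were called higher, and the yardstick genes had a median of 0.34. Per kilobase 2 of the 10 smooth muscle genes lay above the yardstick range in homozygous and 1 in wild-type libraries. Cnn1, calponin, had 53.8 ± 10.3 CPM in homozygous and 10.3 ± 1.47 CPM in wild-type libraries (log2 fold change 2.38, SE 0.17, adjusted p 6.25e-06). Myh11 (0.48), Lmod1 (0.46) and Smtn (0.52) rose as well but each lost its call without wild-type replicate 7 (adjusted p 0.0604, 0.0609 and 0.0821), and other single libraries ended them too, as did removal of the density trend for Myh11 (adjusted p 0.106) and Smtn (adjusted p 0.108) and of the abundance trend for Smtn (adjusted p 0.0723). Mylk was at -0.24 (SE 0.20), not called, and at -0.46 without homozygous replicate 16, where it was called lower (adjusted p 0.0413).

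**Figure D4:**
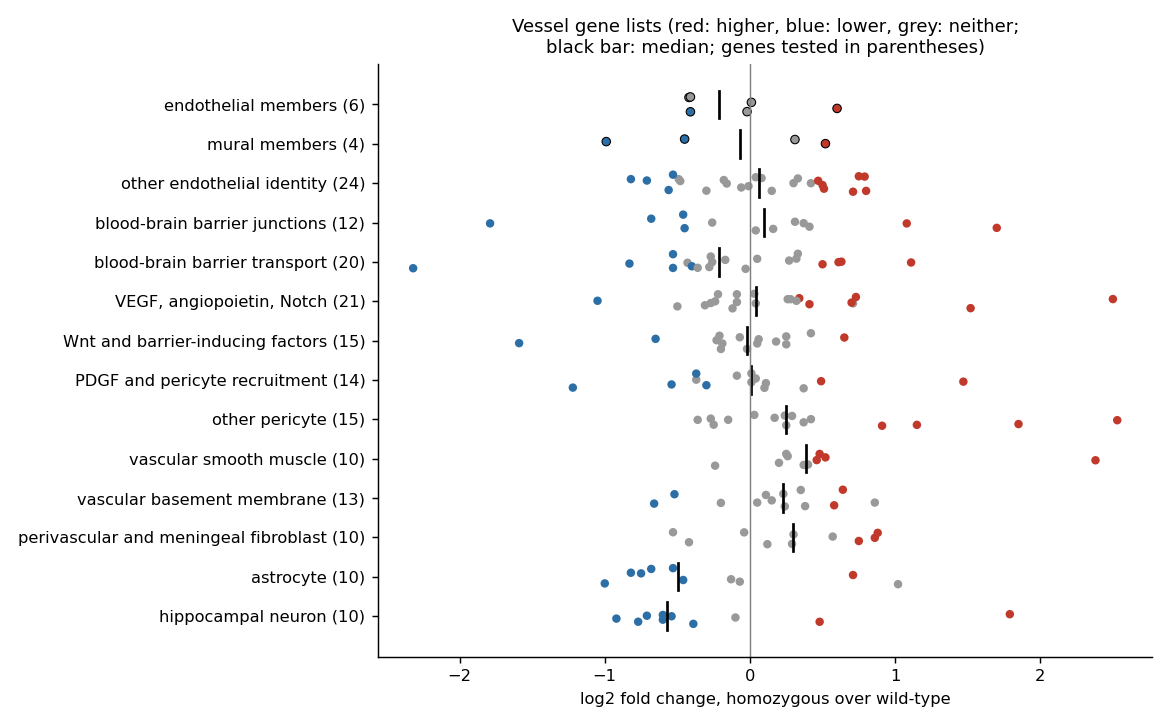
Log2 fold changes, homozygous over wild-type, of every tested gene in 14 groups under TMM scaling, 1 dot per gene (red called higher, blue called lower, grey neither), outlined for the 10 vessel genes, with a black bar at each median. The dots of the endothelial and mural members lie between -0.99 (Pdgfrb) and 0.60 (Kdr). The rows of other pericyte and vascular smooth muscle genes hold no blue dot, while those of the mural members and of pericyte recruitment do.

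Markers of other cells moved alongside. Of all genes 20.7% were called higher and 20.4% lower, and 3 lower among 10 microglial or 12 choroid plexus genes lies near that share. Of the 10 astrocyte genes 1 rose and 6 fell, with the highest CPM in the glutamate transporter genes Slc1a2 (1386 CPM in homozygous, 2325 CPM in wild-type) and Slc1a3 (296.4 CPM in homozygous, 473.6 CPM in wild-type). Of 10 hippocampal neuron genes 2 rose and 7 fell, and they summed to 2623 to 2991 CPM in homozygous and 3368 to 4606 CPM in wild-type libraries. With the density trend removed the calls were 2 higher and 2 lower among astrocyte genes, and 2 and 0 among neuron genes, and neither Slc1a2 nor Slc1a3 was called. Of 10 microglial genes 0 rose and 3 fell (the same in DESeq2 and at an unadjusted p under 0.05 in edgeR), but 2 were lower with the abundance trend removed, 0 with the density trend removed and 0 with library totals. They had sums of 292.6 to 351.4 CPM in homozygous and 284.5 to 377.8 CPM in wild-type libraries. Blood cell genes, 6 of which were tested, rose in 4 cases (Slc4a1 1.22, Cd3e 1.07, Ptprc 1.06 and Alas2 0.91 on the log2 scale) and fell in 1. They summed to 140.3 to 177.1 CPM in homozygous and 78.0 to 100.3 CPM in wild-type libraries, while the haemoglobin gene Hbb-b1 was at 3.28 ± 1.15 CPM in homozygous and 12.2 ± 6.28 CPM in wild-type libraries. Of 7 blood cell genes with a known length, 1 lay above the yardstick range per kilobase in homozygous and 1 in wild-type libraries. The yardstick genes themselves had a median log2 fold change of 0.34. Choroid plexus genes, 1 of 12 higher and 3 lower, summed to 303.8 to 1065 CPM in homozygous and 609.7 to 1550 CPM in wild-type libraries. Their leading gene Ttr, transthyretin, had 594.4, 29.0, 723.4 and 18.5 CPM in homozygous replicates 15 to 18, against 431.1, 1018, 317.5 and 89.8 CPM in wild-type replicates 7 to 10. Among the called choroid plexus genes Sostdc1 fell (log2 fold change -2.42, SE 0.23, adjusted p 4.58e-05), and so did Prlr and Clic6 (both -0.71). Aqp1 rose (28.2 ± 4.95 CPM in homozygous, 14.3 ± 4.01 CPM in wild-type). Prlr lost its call with the abundance trend removed (adjusted p 0.0656). Clic6 lost its call with library totals (adjusted p 0.095). Leaving out homozygous replicate 16 or 18 or wild-type replicate 7 or 8 also ended the Clic6 call (adjusted p up to 0.0668). Slco1c1 had 40.3, 34.8, 39.3 and 55.8 CPM in homozygous replicates 15 to 18, and a link to Ttr was not tested. No listed marker was at 0 in all libraries, and the part of these other cells in the vessel gene values was not tested.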

How the data were processed

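Hippocampal total RNA was depleted of ribosomal RNA and read on a SOLiD 4 instrument in paired reads of 50 and 35 bp, as the labels' protocols state. The authors deposited raw counts per gene symbol, on build mm10 according to the submitters' processing notes; aligner, counting program and strand setting were not given in the sources used here. Each column was assigned by its title, and 0 columns belonged to no sample. All pairs of libraries differed beyond sampling noise (chi-square per degree of freedom at least 5.11).

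The members and lists were chosen with earlier results of these data known. All 10 members passed filterByExpr of edgeR 4.0.16 (R 4.3.3), which kept 20478 genes. TMM scaling and the two-sided quasi-likelihood test with Benjamini-Hochberg adjustment over those genes followed, without covariates, since the labels give no batch or pairing; p-values weigh only the spread between these animals. Exon lengths and positions are from GENCODE M21 (97.6% of entries matched), promoters from RefSeq (8 of 10 members matched). From each list up to 4 called genes by smallest p and the 2 of highest CPM over all libraries were named. For lists of other cell types only Slc1a2, Slc1a3, Ttr and the called blood cell and choroid plexus genes are given. A further 4 listed haemoglobin genes matched no entry by symbol and so were not analysed here. Hbb-b2 had the same counts as Hbb-b1 and was counted once. Alternatives were DESeq2 1.42.0 and its size factors, library totals, 2 other low-count filters, robust dispersion, limma-voom (limma 3.58.1), loess curves (span 0.3) on abundance or on counts per kilobase removed, and each library left out. Counts were also simulated for the homozygous against wild-type comparison with 20419 genes. There the test found 22.4% of 67 genes with a 1.5-fold change, 74.6% of 67 with a 2-fold change and 100% of 66 with a 4-fold change. It made 8 false calls. Only these genes were changed and all genes shared a common dispersion, whereas 41.1% of genes were called in the data. The simulated shares therefore do not measure the power of the comparison above. Tables were made in Python 3.11.15 (pandas 2.3.3, SciPy 1.17.1) and figures in matplotlib 3.10.9.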

Additional observations from a re-analysis of the deposited data

Results flagged for a closer look

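In 87 genes examined, giving 174 groups of 4 libraries, 7 groups held 1 library far from its fellows, by Dixon's 95% criterion; chance flags about 1 in 20 groups. None of the 10 vessel genes was among them. Among related genes, Vwf was at 136.3 CPM in wild-type replicate 8, against 48.6 to 57.9 CPM in the other wild-type libraries. Ppard was at 51.5 CPM in the same library, against 24.8 to 28.6 CPM in the others. Erg was at 19.1 CPM in homozygous replicate 17 (others 14.1 to 14.7), Ctnnb1 at 71.9 CPM in homozygous replicate 15 (others 65.9 to 66.2) and Figf at 5.58 CPM in homozygous replicate 18 (others 7.23 to 7.55). Nrp2 was at 140.7 CPM in wild-type replicate 9 (others 116.0 to 119.6), and Anpep at 11.99 CPM in wild-type replicate 10 (others 14.6 to 15.1).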

How the results depend on the processing

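Across 17 alternatives Pdgfrb (log2 fold change -1.06 to -0.60), Abcc9 (0.36 to 0.72) and Wfs1 (-1.90 to -1.60) kept their direction and their call, and no called gene reversed. The number of vessel genes called higher was 1 with the density trend removed, and 1 to 2 when single libraries were left out. The number called lower was 1 with library totals as the only scaling, where TMM is not applied, and 1 to 4 when single libraries were left out. Flt1 lost its call in 7 alternatives (adjusted p up to 0.251), Kdr in 4 and Rgs5 in 3, while Cldn5 gained one in 3 and Slco1c1 in 4; the cause was not tested. No paired analysis was possible because the genotypes share no replicate number. Depth limits Kcnj8 most, with 33 to 68 counts a library.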

Other observations

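Genes of the vessel wall outside the cell layers above went both ways. Of 13 basement membrane genes 2 rose and 2 fell (median 0.23 on the log2 scale), and with the abundance trend removed 4 were higher and 0 lower. Lama5, a laminin chain, rose (0.64, SE 0.15) and Col4a1, a collagen IV chain, fell (-0.66, SE 0.17), Col4a1 with no call once the abundance or density trend was removed (adjusted p 0.0873 and 0.0527). Hspg2 (0.58) and Sparc (-0.52) lost their calls without wild-type replicate 9 (adjusted p 0.0789 and 0.0725), among other single libraries. Sparc also lost its call with the abundance or density trend removed (adjusted p 0.0767 and 0.28), and Hspg2 with the density trend removed (adjusted p 0.104). Itgb1 was not called (0.38, adjusted p 0.0713), but it was called higher with the abundance trend removed (0.58, adjusted p 0.014), with the density trend removed (0.74, adjusted p 0.00523) and with library totals (0.58, adjusted p 0.0147). Of 10 fibroblast genes of perivascular and meningeal type 3 rose and 0 fell in edgeR, 3 and 0 in DESeq2, and 5 and 0 at an unadjusted p under 0.05 in edgeR. The share called higher lies near the 20.7% of all genes. Their median log2 fold change was 0.29, beside 0.34 for the yardstick genes. Per kilobase 2 of them lay above the yardstick range in homozygous and 1 in wild-type libraries. Col1a1 (log2 fold change 0.88, adjusted p 0.00104) and Foxd1 (0.86, adjusted p 0.0042) rose. The 10 fibroblast genes summed to 261.8 to 352.2 CPM in homozygous and 215.9 to 266.5 CPM in wild-type libraries. Averaged over all 8 libraries, their genes of highest CPM were Col1a2 (54.8 ± 8.74 CPM in homozygous and 32.5 ± 6.41 CPM in wild-type libraries, log2 fold change 0.75, adjusted p 0.00509) and Igf2 (61.5 CPM in homozygous and 41.7 CPM in wild-type libraries, adjusted p 0.0766, and 0.04996 with the abundance trend removed and 0.0222 with library totals).

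Of 15 genes of Wnt signalling and barrier induction 1 rose, 2 fell and 12 did neither. Reck, a co-receptor for the barrier-inducing ligand WNT7, had 73.5 ± 9.96 CPM in homozygous and 221.6 ± 89.8 CPM in wild-type libraries (log2 fold change -1.59, SE 0.25, adjusted p 0.000808), and it stayed called with the abundance (-1.21) and density (-1.06) trends removed. Ctnnb1, beta-catenin, fell with -0.65 (SE 0.13) but missed the threshold once the density trend was removed (adjusted p 0.0929). Ppard rose with 0.65 (SE 0.23), but leaving out homozygous replicate 15 or 18 or wild-type replicate 7, 9 or 10 ended its call (adjusted p up to 0.122), as did removal of the density trend (adjusted p 0.0975). Axin2 was at 0.25 (SE 0.25).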
